A study of Bos taurus with 32 samples.

Results

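PC, PCK1, G6PC1, PPARGC1A, LDHA and LDHB, 6 genes of hepatic gluconeogenesis, were followed in the liver of dairy cows around calving. They were chosen by name from the 9155 genes with a probe set of their own, and every probe set annotated to any of them was taken, which gave 14 of the 24016 probe sets tested: 3 for PC, 1 for PCK1, 2 for G6PC1, 4 for PPARGC1A, 3 for LDHA and 1 for LDHB. Ayrshire cows received a diet of either controlled energy (CON) or high energy (HIGH) over the 6 weeks leading up to predicted calving, and the labels give no age or parity and no diet after calving. Liver was biopsied 8 d ahead of the predicted calving (-8 d), then 1 d and 9 d past the actual one, so the first day is counted from another event than the later days. The RNA was hybridised to Affymetrix bovine arrays, and 32 arrays from 12 cows, 6 per diet, were analysed here, while the design text speaks of 16 cows. At -8 d there were 5 arrays of each diet, at 1 d there were 4 of CON and 6 of HIGH, and at 9 d there were 6 of each. The cow numbers in the labels tied 8 cows, 3 CON and 5 HIGH, to arrays on all 3 days.

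Gluconeogenesis builds glucose from lactate, propionate, amino acids and glycerol. In ruminants little glucose is absorbed from the gut, so the liver supplies most of what the animal uses, and the demand rises steeply when milk secretion begins. Lactate dehydrogenase, a tetramer of LDHA and LDHB subunits, interconverts lactate and pyruvate. Pyruvate carboxylase (PC), a mitochondrial biotin enzyme, turns pyruvate into oxaloacetate, PCK1 (cytosolic phosphoenolpyruvate carboxykinase) turns oxaloacetate into phosphoenolpyruvate, and G6PC1 (the catalytic subunit of glucose-6-phosphatase) releases free glucose. PPARGC1A encodes PGC-1alpha, a transcriptional coactivator that acts on gluconeogenic and mitochondrial genes.

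All levels are log2 values as the authors normalised them, with 1 unit equal to a doubling of signal, and they were compared between arrays for 1 probe set at a time and never between probe sets. Of the member probe sets, the brightest of PC, PCK1, G6PC1, LDHA and LDHB lay between the 95.8th and the 99.8th percentile of all probe sets by mean level, and the brightest of PPARGC1A lay at the 80.7th. Hepatocyte markers were bright on all days, with a mean of 13.12 to 13.34 over the list at -8 d, 13.16 to 13.32 at 1 d and 13.15 to 13.38 at 9 d. Single genes of that list did change. At 1 d 3 of 11 measured genes rose and 5 fell, where 16.5% of all genes were called as rises and 12.3% as falls. At 9 d 2 rose and 2 fell, against 7.79% and 5.08%. Neutrophil markers moved with the day: 4 of 6 (S100A8, S100A9, S100A12 and LTF) rose at 1 d, when limma called 16.5% of all 9155 genes as rises, and the mean of the list ran from 5.55 to 6.23 at -8 d, 6.52 to 7.94 at 1 d and 5.88 to 7.0 at 9 d. Of 9 T and NK cell markers 5 fell at 1 d and 1 at 9 d, where 12.3% and 5.08% of all genes were called as falls. The 3' minus 5' difference of the ef1a control probe sets, a sign of RNA quality, also moved with the day, with -0.68 ± 0.12 at -8 d (SD, n = 10), -1.07 ± 0.15 at 1 d (SD, n = 10) and -0.81 ± 0.13 at 9 d (SD, n = 12). The same difference for gapd was 0.54, 0.53 and 0.58, and for actin 1.60 ± 0.27 (SD, n = 10), 1.61 ± 0.23 (SD, n = 10) and 1.78 ± 0.70 (SD, n = 12). One array, of CON at 9 d from cow 528 (replicate 6), stood apart in skeletal muscle markers, with MYH1 at 11.49 against a median of 3.80, and had the highest actin difference, 3.87 against at most 2.20 on any other array. The HIGH 9 d array of cow 432 (replicate 2) had MYH1 at 6.73. The part of these shifts in the results was not tested, apart from leaving out the 2 arrays with muscle markers.

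The largest rise at 1 d among the 14 probe sets was that of the brightest of PC, Bt.12339.1.S1_at. The 2 dimmer probe sets of PC changed by 0.45 and -0.05 and are described further below. Bt.12339.1.S1_at, meant by PC until then, read 9.73, 9.92, 10.31, 10.34 and 11.18 in the 5 CON arrays at -8 d, and 9.77, 9.83, 9.97, 10.12 and 10.17 in the 5 HIGH arrays. At 1 d the 4 CON arrays read 11.74, 11.76, 11.78 and 11.98, and the 6 HIGH arrays ran from 10.85 through a median of 11.52 to 12. At 9 d CON ran from 11.03 through 11.15 to 11.32, and HIGH from 10.83 through 11.18 to 11.42. At 1 d 9 of 10 arrays lay above every array at -8 d. The days overlapped through 1 array at -8 d, the 11.18 of cow 445, whose LDHA (Bt.3809.1.S1_at) and LDHB values were also the highest of that day.

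The group mean of PC was highest at 1 d, with 11.82 ± 0.11 in CON (SD, n = 4) and 11.52 ± 0.41 in HIGH (SD, n = 6). It was next highest at 9 d, with 11.16 ± 0.10 in CON and 11.14 ± 0.22 in HIGH (SD, n = 6 each), and lowest at -8 d, with 10.30 ± 0.56 in CON and 9.97 ± 0.17 in HIGH (SD, n = 5 each). Neighbours of the same day overlapped, and so did the neighbours HIGH 1 d and CON 9 d, and HIGH 9 d and CON -8 d. Averaged over the diets, PC was 2.90-fold higher at 1 d than at -8 d, a log2 fold change of 1.53 (SE 0.12, 95% interval 1.28 to 1.79, limma adjusted p = 5.31e-10). At 9 d it was 2.02-fold the level of -8 d (log2 1.01, SE 0.12, limma adjusted p = 1.79e-06), and from 1 d to 9 d it fell by 0.52 (SE 0.12, limma adjusted p = 0.00262). By size of change it was 31st of the 24016 probe sets at 1 d and 71st at 9 d. In bulk liver, fewer cells of a type and less RNA per cell cannot be told apart, here and for every gene below.

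Every cow moved the same way in PC, by different amounts. The log2 change from -8 d to 1 d was 0.56, 1.84 and 2.25 in the CON cows 445, 483 and 477, and 1.02, 1.20, 1.87, 1.88 and 1.88 in the HIGH cows 432, 529, 460, 439 and 462. Cow 445 had the smallest change and the highest level at -8 d, and cow 477 had the largest change and the lowest level. From 1 d to 9 d PC was lower in 10 of 10 cows, by 0.02 in cow 432 up to 0.84 in cow 477. Within the diets the change to 1 d was 1.52 in CON (limma adjusted p = 1.21e-05) and 1.55 in HIGH (limma adjusted p = 1.17e-07). The fall from 1 d to 9 d passed in CON (-0.66, limma adjusted p = 0.0358) and not in HIGH (-0.38, limma adjusted p = 0.125), and this difference between the diets was not tested. The call in CON ended without the 2 arrays that carried muscle markers. It also ended without cow as a block, with the replicate numbers of the titles as the block, and with only the cows that had 3 days. Of 44 fits that each left out 1 array or 1 cow, 10 ended it.

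**Figure D1:**
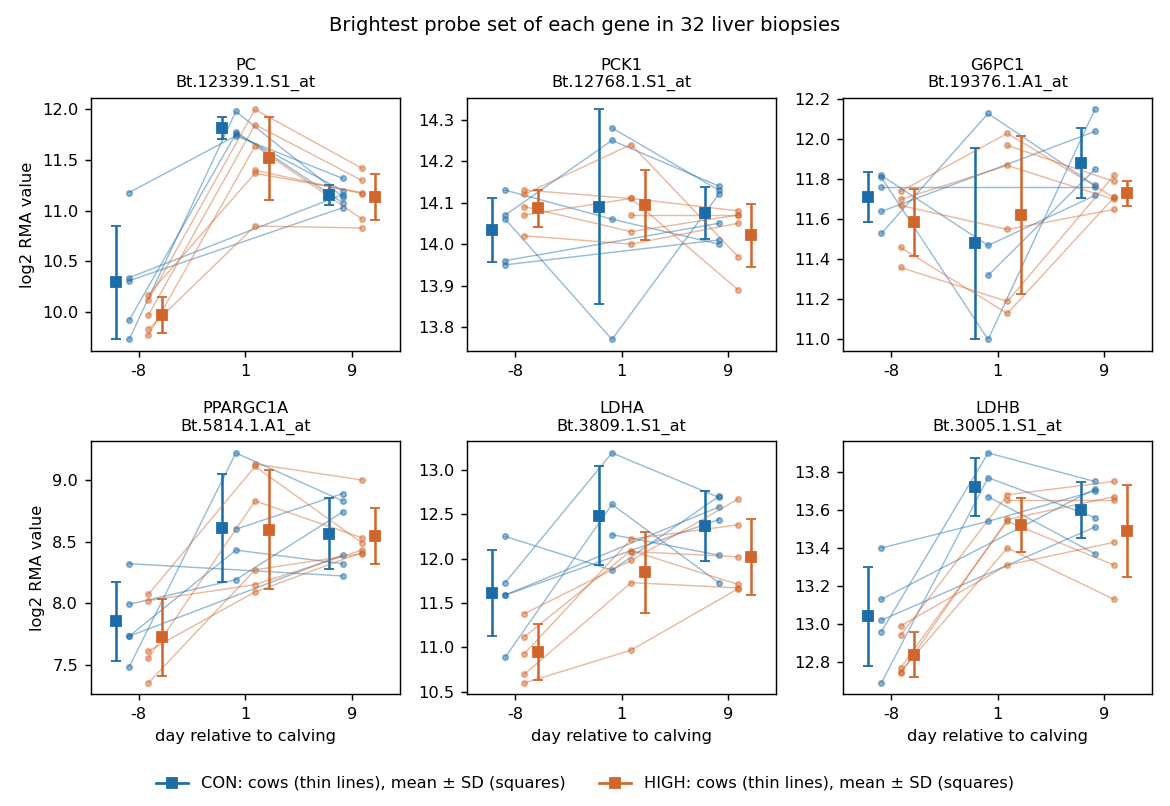
Log2 level (y axis) of the brightest probe set of each of the 6 genes against the day of biopsy (x axis, the 3 days evenly spaced), with thin lines joining the arrays of a cow and squares showing the mean ± SD of each diet. PC, LDHB, LDHA and PPARGC1A stood higher after calving, while PCK1 stayed between 13.77 and 14.28 on all arrays.

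PCK1, the next enzyme of the path, did not pass the test on either day. Bt.12768.1.S1_at read 13.95, 13.96, 14.06, 14.07 and 14.13 in CON at -8 d, and 14.02, 14.07, 14.09, 14.12 and 14.13 in HIGH. At 1 d CON read 13.77, 14.06, 14.25 and 14.28, and HIGH ran from 14.00 through 14.09 to 14.24. At 9 d CON ran from 14.00 through 14.08 to 14.14 and HIGH from 13.89 through 14.06 to 14.08. The 6 group means lay between 14.02 and 14.09, all neighbours overlapped, and the widest spread was in CON at 1 d (SD 0.23, n = 4), where cow 445 had the lowest value of all arrays.

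The log2 change of PCK1 was 0.02 at 1 d (SE 0.05, 95% interval -0.07 to 0.12, limma adjusted p = 0.754) and -0.02 at 9 d (95% interval -0.10 to 0.07, limma adjusted p = 0.885). PCK1 was higher at 1 d in 3 cows and lower in 5, with changes from -0.29 to 0.18. How far a level at the 99.8th percentile limits the change that can be measured was not tested.

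G6PC1, the last enzyme of the path, gave a different reading at 1 d with each of its probe sets. The brighter, Bt.19376.1.A1_at, read 11.53, 11.64, 11.76, 11.81 and 11.82 in CON at -8 d, and 11.36, 11.46, 11.67, 11.70 and 11.74 in HIGH. At 1 d CON read 11, 11.32, 11.47 and 12.13, and HIGH ran from 11.13 through 11.71 to 12.03. At 9 d CON ran from 11.72 through 11.81 to 12.15, and HIGH from 11.65 through 11.71 to 11.82. The arrays at 1 d fell on both sides of those at -8 d, with 4 of 10 above all of them and 4 of 10 below, and the SD over both diets was 0.41 at 1 d against 0.15 on each of the other days (n = 10, 10 and 12). Group means ran from 11.48 (CON 1 d) to 11.88 (CON 9 d), and all neighbours overlapped.

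The log2 change of this probe set was -0.10 at 1 d (SE 0.11, 95% interval -0.32 to 0.12, limma adjusted p = 0.56) and 0.15 at 9 d (SE 0.10, limma adjusted p = 0.399). From 1 d to 9 d it was 0.25 (SE 0.10, limma adjusted p = 0.105), and 0.37 without the 1 d array of cow 477 (SE 0.09, limma adjusted p = 0.00603). Cow 477 gained 0.60 by 1 d and cow 445 lost 0.81. The dimmer probe set, Bt.17113.1.A1_at, read 6.86, 7.0, 7.17, 7.36 and 7.41 in CON at -8 d, and 7.34, 7.64, 8.68 and 9.06 in CON at 1 d. In HIGH it read 6.63, 6.77, 6.92, 7.35 and 7.79 at -8 d and ran from 6.55 through 7.46 to 8.37 at 1 d. It rose 1.64-fold at 1 d (log2 0.72, SE 0.19, limma adjusted p = 0.00737) and did not pass at 9 d (0.47, SE 0.18, limma adjusted p = 0.11), when CON ran from 7.50 to 8.18 and HIGH from 6.88 to 7.71. With cow as a fixed block the 9 d value passed (0.47, limma adjusted p = 0.0475), as it did with array weights (0.47, limma adjusted p = 0.0472).

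Within arrays, the brighter G6PC1 probe set moved 0.74 less than the dimmer from -8 d to 1 d, in 7 of 8 cows (difference of changes -0.74, exact sign-flip test, adjusted p = 0.0341 over the 24 comparisons of probe sets of 1 gene). Leaving out each of the 12 cows in turn ended that call 7 times, with adjusted p up to 0.0682, while the difference stayed between -0.86 and -0.56. With 8 cows the smallest p of the exact sign-flip test is 0.00781, and fewer cows raise that limit. The difference did not pass from -8 d to 9 d (-0.31, exact sign-flip test, adjusted p = 0.0865). Nor did it pass from 1 d to 9 d (0.44, exact sign-flip test, adjusted p = 0.0781). Each passed in a few other settings. The array annotation assigns both probe sets to the gene through expressed sequence tags, and where they lie on the transcript was not analysed here. The rise of the dimmer probe set was 1.05 in CON (SE 0.29, limma adjusted p = 0.0256) and 0.38 in HIGH (SE 0.26, limma adjusted p = 0.338). The difference between those rises was -0.66 (SE 0.39, 95% interval -1.46 to 0.13, limma adjusted p = 0.762), so the diets were not shown to differ.

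LDHB, the subunit that predominates in heart and other oxidative tissues, rose after calving in every cow. Bt.3005.1.S1_at read 12.69, 12.96, 13.02, 13.13 and 13.40 in CON at -8 d, and 12.74, 12.75, 12.77, 12.94 and 12.99 in HIGH. At 1 d CON read 13.54, 13.67, 13.77 and 13.90, and HIGH ran from 13.31 through 13.54 to 13.68. At 9 d CON ran from 13.37 through 13.63 to 13.75 and HIGH from 13.13 through 13.54 to 13.75. At 1 d 8 of 10 arrays, and at 9 d 9 of 12, lay above every array at -8 d. Means were 13.72 and 13.52 at 1 d, 13.60 and 13.49 at 9 d, and 13.04 and 12.84 at -8 d for CON and HIGH, with SDs of 0.12 to 0.26, and neighbours in this order of levels overlapped throughout.

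LDHB was 1.61-fold higher at 1 d than at -8 d (log2 0.68, SE 0.08, limma adjusted p = 1.1e-07) and 1.52-fold higher at 9 d (log2 0.61, SE 0.07, limma adjusted p = 2.05e-06). It was 74th of all probe sets by p at 1 d and 14th at 9 d. The change was 0.14 to 1.08 in the 8 cows at 1 d and 0.30 to 0.93 in the 10 cows at 9 d. Between 1 d and 9 d it moved by -0.08 (SE 0.07, limma adjusted p = 0.546), and in the same arrays PC fell by 0.41 more than LDHB (exact sign-flip test, adjusted p = 0.0107).

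LDHA, the subunit that predominates in skeletal muscle, had probe sets that moved in opposite directions. The brightest, Bt.3809.1.S1_at, read 10.89, 11.59, 11.59, 11.73 and 12.25 in CON at -8 d, and 10.60, 10.70, 10.93, 11.12 and 11.38 in HIGH. At 1 d CON read 11.87, 12.27, 12.61 and 13.19, and HIGH ran from 10.97 through 12.03 to 12.22. At 9 d CON ran from 11.73 through 12.51 to 12.70 and HIGH from 11.66 through 11.86 to 12.67. The days overlapped, with 3 of 10 arrays at 1 d and 6 of 12 at 9 d above every array at -8 d. Means were 12.48 and 11.84 at 1 d, 12.36 and 12.02 at 9 d, and 11.61 and 10.95 at -8 d for CON and HIGH, with SDs of 0.32 to 0.56, and all neighbours in the order of levels overlapped.

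This LDHA probe set rose 1.86-fold at 1 d (log2 0.90, SE 0.17, limma adjusted p = 0.000217) and 1.89-fold at 9 d (log2 0.92, SE 0.16, limma adjusted p = 0.000254). It was higher at 1 d in 7 of 8 cows, with cow 445 at -0.38, and higher at 9 d in 10 of 10. The other probe sets, both assigned to LDHA through expressed sequence tags, fell at 1 d. Bt.13881.1.S1_at ran from 10.00 to 10.53 at -8 d, from 9.77 to 10.19 at 1 d and from 9.90 to 10.35 at 9 d, and fell by 0.28 at 1 d (SE 0.06, limma adjusted p = 0.00135). Bt.25555.1.S1_at ran from 9.36 to 9.68, from 8.91 to 9.67 and from 9.02 to 9.41, and fell by 0.24 at 1 d (SE 0.07, limma adjusted p = 0.00912) and by 0.23 at 9 d (SE 0.06, limma adjusted p = 0.0172). Without cow 477 the last value was -0.21 (limma adjusted p = 0.0529). With only the cows that had 3 days both calls ended (-0.23 at 1 d, limma adjusted p = 0.0561, and -0.24 at 9 d, limma adjusted p = 0.0943).

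Within arrays, Bt.3809.1.S1_at gained 1.14 on Bt.13881.1.S1_at from -8 d to 1 d in 7 of 8 cows (exact sign-flip test, adjusted p = 0.0341), and 1.05 by 9 d in 10 of 10 cows (exact sign-flip test, adjusted p = 0.00937). On Bt.25555.1.S1_at it gained 1.11 in 8 of 8 cows (exact sign-flip test, adjusted p = 0.0208) and 1.15 in 10 of 10 (exact sign-flip test, adjusted p = 0.00937). The first of these calls ended in 7 of the 12 fits that each left out 1 cow, where the gain stayed between 1.02 and 1.3. Bt.13881.1.S1_at then rose by 0.18 from 1 d to 9 d (limma adjusted p = 0.042), a call that ended in 25 of the other settings tried, the one without the arrays with muscle markers among them (0.17, limma adjusted p = 0.0794).

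PPARGC1A, the coactivator, rose on all 4 of its probe sets. The brightest, Bt.5814.1.A1_at, read 7.48, 7.73, 7.73, 7.99 and 8.32 in CON at -8 d, and 7.35, 7.55, 7.61, 8.02 and 8.07 in HIGH. At 1 d CON read 8.19, 8.43, 8.60 and 9.22, and HIGH ran from 8.09 through 8.55 to 9.13. At 9 d CON ran from 8.22 through 8.57 to 8.89 and HIGH from 8.40 through 8.46 to 9.00. The 4 group means after calving lay between 8.54 and 8.61 and those at -8 d at 7.85 (CON) and 7.72 (HIGH), with SDs of 0.23 to 0.48. At 1 d 6 of 10 arrays, and at 9 d 10 of 12, lay above every array at -8 d.

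The brightest probe set of PPARGC1A was 1.74-fold higher at 1 d (log2 0.80, SE 0.14, limma adjusted p = 9.54e-05) and 1.69-fold higher at 9 d (log2 0.75, SE 0.13, limma adjusted p = 0.000295). The others changed by 0.86 (Bt.20920.1.S1_at), 0.82 (Bt.5823.1.S1_at) and 1.13 (Bt.12148.1.S1_at) at 1 d, and by 0.71, 0.67 and 0.86 at 9 d, all past the threshold (limma adjusted p from 1.16e-05 to 0.0018). Each was higher at 1 d in 8 of 8 cows. In none of the 9 comparisons of another PPARGC1A probe set with the brightest, over 3 pairs of days, did the change differ past the threshold (differences of -0.23 to 0.22, exact sign-flip tests, adjusted p from 0.174 to 0.906). In other settings 3 of them passed: Bt.5814.1.A1_at against Bt.12148.1.S1_at at 1 d with limma on the differences (-0.32, adjusted p = 0.0136), and from 1 d to 9 d Bt.5814.1.A1_at against Bt.20920.1.S1_at without cow 510 (0.19) and against Bt.5823.1.S1_at without cow 529 (0.15; exact sign-flip tests, adjusted p = 0.0312 for each). Between 1 d and 9 d the changes were -0.05 to -0.27, and none passed.

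**Figure D2:**
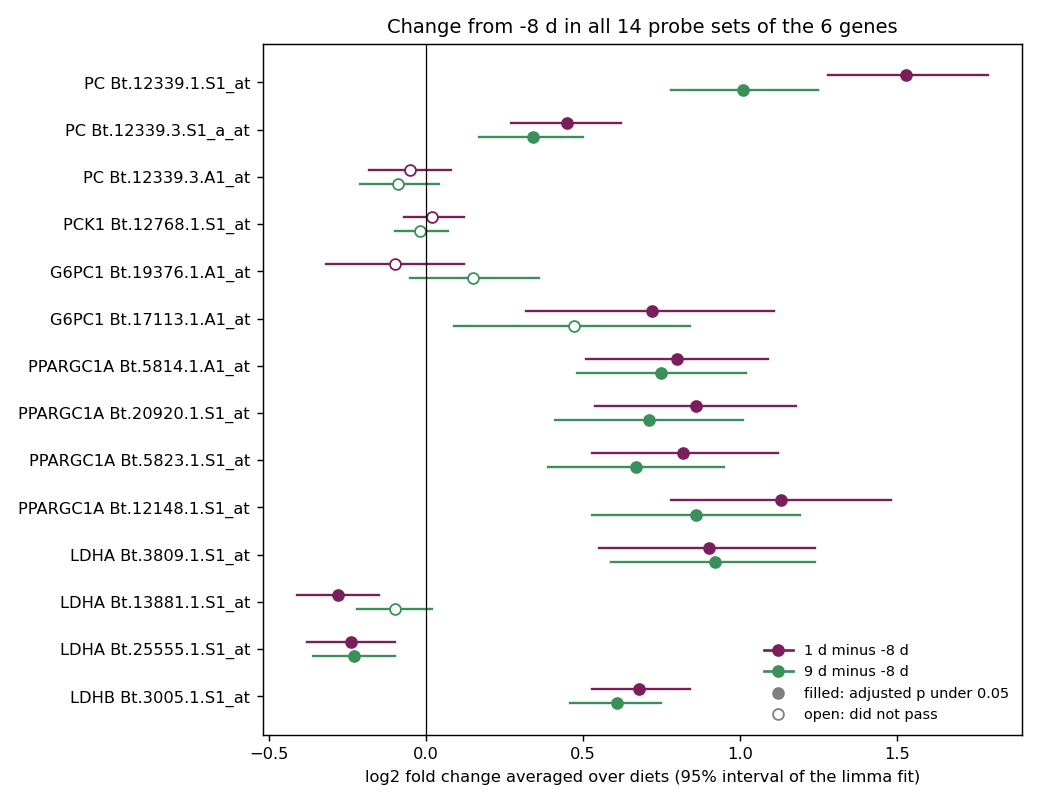
Log2 fold change (x axis) with its 95% interval from limma for each of the 14 probe sets (y axis), averaged over the diets, for 1 d and 9 d against -8 d; filled circles have adjusted p under 0.05. The 3 LDHA probe sets lie on both sides of 0 at 1 d, from 0.90 to -0.28, while the 4 of PPARGC1A lie together between 0.80 and 1.13.

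The probe sets of PC also differed among themselves. Bt.12339.3.S1_a_at, at the 40.4th percentile, read 4.72, 4.88, 4.96, 5.22 and 5.36 in CON at -8 d and 5.13, 5.38, 5.56 and 5.69 in CON at 1 d, and it ran from 4.63 to 5.25 and from 5.18 to 5.69 in HIGH. It rose by 0.45 at 1 d (SE 0.09, limma adjusted p = 0.000307) and by 0.34 at 9 d (SE 0.08, limma adjusted p = 0.00652). Bt.12339.3.A1_at, at the 22.1st percentile, stayed between 3.71 and 4.38 on all arrays, with a change of -0.05 at 1 d (SE 0.07, limma adjusted p = 0.648). Within arrays, the brightest PC probe set gained 1.07 at 1 d on Bt.12339.3.S1_a_at (8 cows, exact sign-flip test, adjusted p = 0.0208). No probe set was tested against background, and how far the low level of Bt.12339.3.S1_a_at limits its change was not tested. The comparisons with Bt.12339.3.A1_at were run and are among the 24 within genes, but they are not described because of its low level. Both dimmer probe sets of PC are assigned to it through the same expressed sequence tag.

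**Figure D3:**
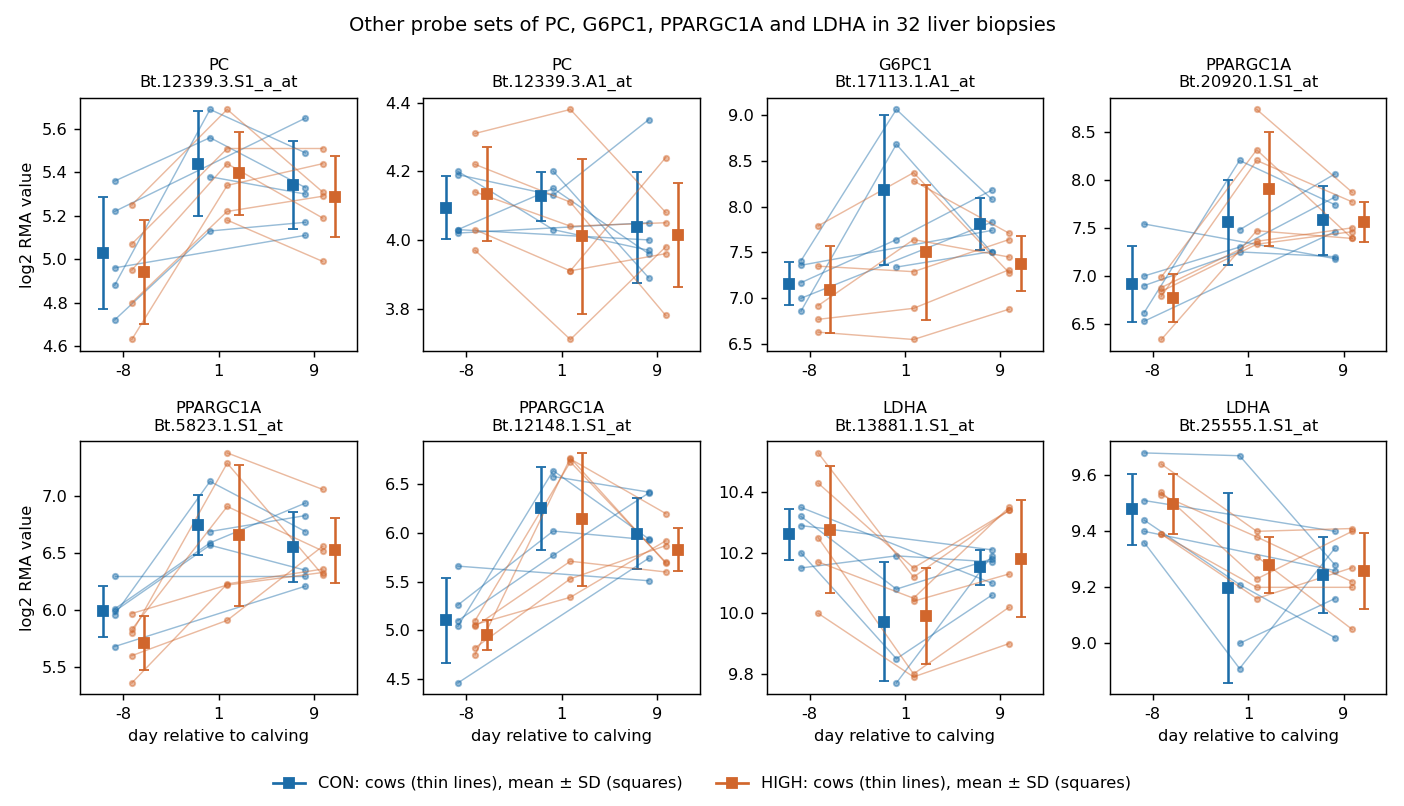
Log2 level (y axis) of the other 8 probe sets of PC, G6PC1, PPARGC1A and LDHA against the day of biopsy (x axis, the 3 days evenly spaced), with thin lines for cows and squares for the mean ± SD of each diet. The 3 of PPARGC1A and Bt.17113.1.A1_at of G6PC1 stood higher at 1 d, Bt.13881.1.S1_at and Bt.25555.1.S1_at of LDHA stood lower, and Bt.12339.3.A1_at of PC stayed between 3.71 and 4.38.

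Counted over the 14 probe sets, 9 rose and 2 fell at 1 d against -8 d, where limma called 23.0% of all 24016 (11.5% as rises and 11.6% as falls). The median change of the members was 0.70, against -0.02 over all probe sets. At 9 d against -8 d 8 rose and 1 fell, against 9.44% of all probe sets (5.18% and 4.25%), with a member median of 0.54. From 1 d to 9 d 1 rose (Bt.13881.1.S1_at of LDHA) and 1 fell (the brightest of PC), against 13.1% (6.11% and 6.99%). These comparisons share arrays: the -8 d arrays serve both first ones. Probe sets of 1 gene are not independent, and all 4 of PPARGC1A were among the rises on both days. The genes were also chosen with earlier results of these data known, so the counts are no test of enrichment.

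Within CON 8 rose and 0 fell at 1 d (6.34% of all called, 3.33% up and 3.01% down), 4 rose at 9 d (1.84%, 1.05% up and 0.787% down), and 1 fell from 1 d to 9 d (2.76%, 1.39% up and 1.37% down). Within HIGH 8 rose and 1 fell at 1 d (16.6% of all called, 8.70% up and 7.88% down), 7 rose at 9 d (3.56%, 2.43% up and 1.13% down), and none passed from 1 d to 9 d by limma (9.14%, 4.43% up and 4.71% down), where 2 had an unadjusted p under 0.05. The counts in CON depended on few cows. Without cow 477 the 8 at 1 d became 2, and the count at 9 d went down to 1 without that cow or without cow 483. In HIGH the 7 at 9 d became 3 without cow 439 or without the -8 d array of cow 460. Without the 2 arrays that carried muscle markers the counts at 9 d against -8 d were 2 in CON and 6 in HIGH.

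No member passed for a difference between the diets by limma. The adjusted p of the 14 was at or above 1.0 at -8 d, 0.526 at 1 d and 0.998 at 9 d, with 0.0%, 0.00416% and 0.0% of all probe sets called. At an unadjusted p under 0.05 the counts were 1, 2 and 0 members, beside 4.27%, 8.38% and 3.39% of all probe sets. The values with the lowest unadjusted p were those of LDHA and G6PC1. LDHA (Bt.3809.1.S1_at) was 0.64 lower in HIGH at -8 d (difference -0.64, SE 0.25, 95% interval -1.16 to -0.13, limma adjusted p = 1.0) and 0.65 lower at 1 d (-0.65, SE 0.26, limma adjusted p = 0.526). Leaving out 1 array or 1 cow at a time moved these differences between -0.82 and -0.47 and between -0.90 and -0.42. G6PC1 (Bt.17113.1.A1_at) was lower in HIGH at 1 d by 0.68 (-0.68, SE 0.29, 95% interval -1.28 to -0.08, limma adjusted p = 0.555), with -0.95 to -0.39 when an array or cow was left out.

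PC differed between the diets by -0.32 at -8 d (SE 0.18, 95% interval -0.70 to 0.05), -0.29 at 1 d (SE 0.19) and -0.02 at 9 d (SE 0.17). The value at -8 d was -0.10 without cow 445 and -0.47 without cow 477. PCK1 differed by 0.05, 0.01 and -0.05, and LDHB by -0.19, -0.20 and -0.11. No member passed for diet by time either, where 0.0% of all probe sets were called at 1 d and at 9 d by limma, and no member had an unadjusted p under 0.05. The difference between HIGH and CON in the change to 1 d was 0.03 for PC (95% interval -0.48 to 0.53) and -0.00 for LDHA (95% interval -0.69 to 0.69). Intervals of this width leave sizeable differences in either direction undetectable with these arrays.

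PC was compared within arrays with the other genes, each at its brightest probe set, and the change differed in 13 of 15 comparisons, of which 3 were against PCK1 and are not described further. At 1 d the excess of PC was 1.65 over G6PC1, 0.88 over LDHB, 0.75 over PPARGC1A and 0.68 over LDHA (exact sign-flip tests over 8 cows, adjusted p from 0.0107 to 0.018). At 9 d it was 0.86 over G6PC1 and 0.40 over LDHB, while 0.32 over PPARGC1A (exact sign-flip test, adjusted p = 0.0565) and 0.07 over LDHA (exact sign-flip test, adjusted p = 0.496) did not pass. From 1 d to 9 d PC fell against each of them, by 0.41 to 0.70. Only 1 probe set of each gene entered, and the dimmer one of G6PC1 rose by 0.72 at 1 d. Probe sets of the same gene also differed by such amounts at 1 d, with 1.07 within PC and 1.14 within LDHA. The dimmer probe set behind the 1.07 lay at the 40.4th percentile by level. Whether an excess belongs to the gene or to the probe set was not tested.

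Pearson's r of the changes to 1 d, taken over cows, passed after adjustment in 12 of the 15 pairs and Spearman's rho in 3, and in the 9 pairs that passed by r alone r without 2 cows was 0.14 to 0.95. The share of other gene pairs that would pass in the same cows was not computed. These counts and the values below therefore do not set the members apart from other genes. Over the 8 cows with both days, the change from -8 d to 1 d of PCK1 and that of G6PC1 (Bt.19376.1.A1_at) had Pearson's r = 0.96 (exact permutation p = 0.000149, adjusted p = 0.00447 over 30 correlations of this kind) and Spearman's rho = 0.96 (exact permutation p = 0.000694, adjusted p = 0.0104). Without the 2 cows farthest from the median change of PCK1, r was 0.91. In every pair the 2 cows left out were chosen by the first gene named, so a cow far out in the second could stay. Cow 477 was highest and cow 445 lowest in both genes, although neither gene passed for the day. The changes of PC and PPARGC1A had r = 0.90 (exact permutation p = 0.00258, adjusted p = 0.0155) and rho = 0.97 (exact permutation p = 0.000496, adjusted p = 0.0104), and r = 0.86 without 2 cows.

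LDHA and LDHB had r = 0.95 (exact permutation p = 0.000322, adjusted p = 0.00483) and rho = 0.93 (exact permutation p = 0.00223, adjusted p = 0.0223), and r = 0.84 without 2 cows. PC and LDHB had r = 0.90 (exact permutation p = 0.00218, adjusted p = 0.0155), while rho = 0.79 did not pass after adjustment (exact permutation p = 0.0251, adjusted p = 0.0941). At 9 d, over 10 cows, that pair had r = 0.80 (permutation p = 0.00238, adjusted p = 0.0155) and rho = 0.83 (permutation p = 0.00508, adjusted p = 0.0381), and r = 0.80 without 2 cows. It was the only pair whose r and rho both passed at 9 d, when PCK1 and G6PC1 had r = 0.61 (permutation p = 0.0655, adjusted p = 0.101) and PC and PPARGC1A r = 0.30 (permutation p = 0.39, adjusted p = 0.45). The changes of a pair come from the same arrays, the difference between the days was not tested, and 3 CON and 5 HIGH cows are too few for a value within a diet.

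**Figure D4:**
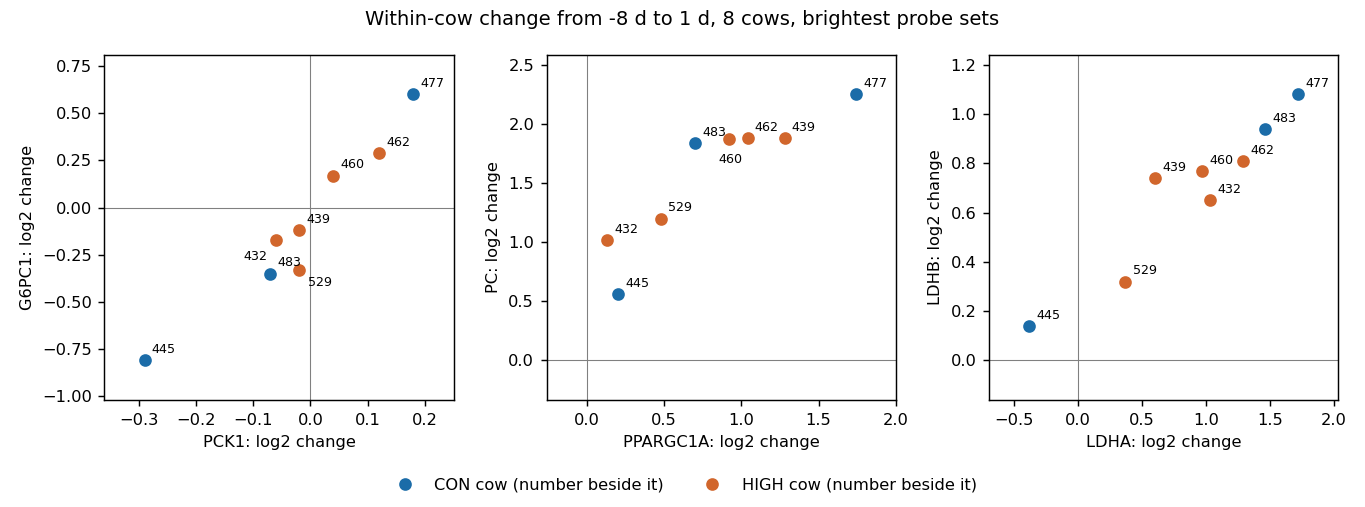
Change of each cow from -8 d to 1 d (log2) in 3 pairs of genes (1 gene on each axis), each gene at its brightest probe set, with 1 point per cow (8 cows, cow numbers beside the points, diet by colour). Cow 477 lies at the high end and cow 445 at the low end for PCK1 against G6PC1 (r = 0.96) and for LDHA against LDHB (r = 0.95).

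By pattern over all 32 arrays, the genes most like PC at their brightest probe sets were PLPP5 (Pearson's r 0.912), C29H11orf24 (0.902), SLC22A5 (0.899), TMEM86A (0.892) and DDHD2 (0.891). PLPP5 rose by 1.33 at 1 d and SLC22A5, the carnitine transporter OCTN2, by 0.97. For PPARGC1A they were ARG1, arginase of the urea cycle (0.930), SLC25A4, an ADP/ATP carrier (0.866), and OGDH of the citric acid cycle (0.843). For LDHA they were MPC1, a subunit of the mitochondrial pyruvate carrier (0.852), GK, glycerol kinase (0.839), and EGLN3, an oxygen-sensing prolyl hydroxylase (0.825). For LDHB they were PRKAR2A (0.890), MPC1 (0.884) and SLC22A5 (0.878). PCK1 and G6PC1 had no gene above 0.646, with ASL (0.635) nearest to PCK1 and IARS2 (0.646) nearest to G6PC1. These correlations describe the arrays, which share cows and days.

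The rest of the pathway was described by 6 lists holding 88 measured genes, each at its brightest probe set. At 1 d against -8 d 26 rose and 14 fell by limma, where 28.8% of all 9155 genes were called (16.5% up and 12.3% down). At 9 d 16 rose and 4 fell, against 12.9% (7.79% and 5.08%), and from 1 d to 9 d 12 rose and 11 fell, against 17.5% (7.44% and 10.0%). The median changes were 0.07, 0.06 and 0.0. By limma 0 genes of the lists passed for diet or diet by time, with 2, 7 and 2 of 88 at an unadjusted p under 0.05 between the diets on the first, second and last day, and 6 and 1 for diet by time.

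Among the other steps of gluconeogenesis 6 of 16 measured genes rose and 1 fell at 1 d, and 4 rose and 0 fell at 9 d. ALDOA, the aldolase best known from muscle, rose by 0.66 at 1 d (SE 0.08, limma adjusted p = 1.22e-06) and by 0.56 at 9 d, and by 0.55 at 9 d without the 2 arrays that carried muscle markers. MDH2, mitochondrial malate dehydrogenase, rose by 0.37 and 0.24, and its dimmer probe set changed by 0.15 without passing and rose by 0.33. GPI rose by 0.34 at 1 d and PGK1 by 0.22 at 9 d. SLC25A11, the oxoglutarate and malate carrier, rose by 0.23 at 1 d and 0.21 at 9 d, while its dimmer probe set changed by 0.13 and -0.09 without passing.

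Propionate, the main glucose precursor in ruminants, enters through propionyl-CoA carboxylase and methylmalonyl-CoA mutase. Of 14 measured genes of this route 3 rose and 3 fell at 1 d, and 4 rose and 0 fell at 9 d. PCCB, a carboxylase subunit, fell by 0.47 at 1 d (limma adjusted p = 4.75e-05) and MMUT, the mutase, by 0.30, while SUCLG1 rose by 0.36 and MMACHC, of cobalamin handling, by 0.61. At 9 d SUCLG1 (0.23), MMACHC (0.40), MCEE (0.24) and MMAB (0.25) rose, while the second probe set of MMAB changed by 0.03 (limma adjusted p = 0.789). From 1 d to 9 d 5 rose and 1 fell, and PCCB (0.49), PCCA (0.45) and MMUT (0.40), each with 1 probe set and chosen after their values were seen, were among the rises.

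Of 16 measured genes for lactate, pyruvate and biotin 7 rose and 3 fell at 1 d, and 5 rose and 0 fell at 9 d. SLC16A1, the monocarboxylate transporter MCT1, rose by 0.91 at 1 d (SE 0.16, limma adjusted p = 0.000107), and MPC1 rose by 0.51 at 1 d and 0.55 at 9 d. BTD, biotinidase, rose by 0.37 at 1 d. LDHD, D-lactate dehydrogenase, fell by 0.82 at 1 d (SE 0.11, limma adjusted p = 2.71e-06), while its second probe set changed by -0.13 (limma adjusted p = 0.156). DLAT (0.22), PDHA1 (0.22) and MPC2 (0.14) rose at 9 d, and the 4 probe sets of PDHA1 disagreed, with 0.49 to -0.08, as did those of DLAT, with 0.26 to 0.01.

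For entry of amino acids and glycerol 5 of 14 measured genes rose and 2 fell at 1 d, and 3 rose and 1 fell at 9 d. GK rose by 1.06 at 1 d (SE 0.16, limma adjusted p = 1.47e-05) and 0.74 at 9 d. SLC38A2, an amino acid transporter, rose by 0.73 and GPT2, mitochondrial alanine aminotransferase, by 0.79 at 1 d, while GLUD1, glutamate dehydrogenase, fell by 0.31 at 1 d and by 0.21 at 9 d, and its second probe set changed by -0.16 and -0.01 without passing. ASS1 (0.21) and GLS2, liver glutaminase (0.60), rose at 9 d. In the list for glucose uptake and glycolysis 1 of 12 measured genes rose and 2 fell at 1 d, and 0 rose and 1 fell at 9 d. PKLR, the liver pyruvate kinase that works against the PCK1 step, fell by 0.90 at 1 d (SE 0.10, limma adjusted p = 2.35e-07) and by 0.41 at 9 d. At 1 d PFKL rose by 0.20 and PFKFB4 fell by 0.20, the latter at a low mean level of 4.08 that was not tested against background.

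Of 16 measured regulators 4 rose and 3 fell at 1 d, and 0 rose and 2 fell at 9 d. CEBPB, a bZIP transcription factor, rose by 0.44 and TRIB3, a pseudokinase, by 0.59 at 1 d. CEBPD fell by 0.33 at 1 d, with 1 of its 3 probe sets at -0.07 without passing. SIRT1, a deacetylase that acts on PGC-1alpha, fell by 0.39 at 1 d and by 0.37 at 9 d, and its dimmer probe set changed by -0.19 at 1 d without passing. CREBBP fell by 0.31 at 9 d. Leaving out the 2 arrays with muscle markers changed 4 calls over all lists: SDSL at 1 d and ACAT1 at 9 d were lost, PDK2 was lost from 1 d to 9 d, and NR3C1 was gained at 1 d.

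**Figure D5:**
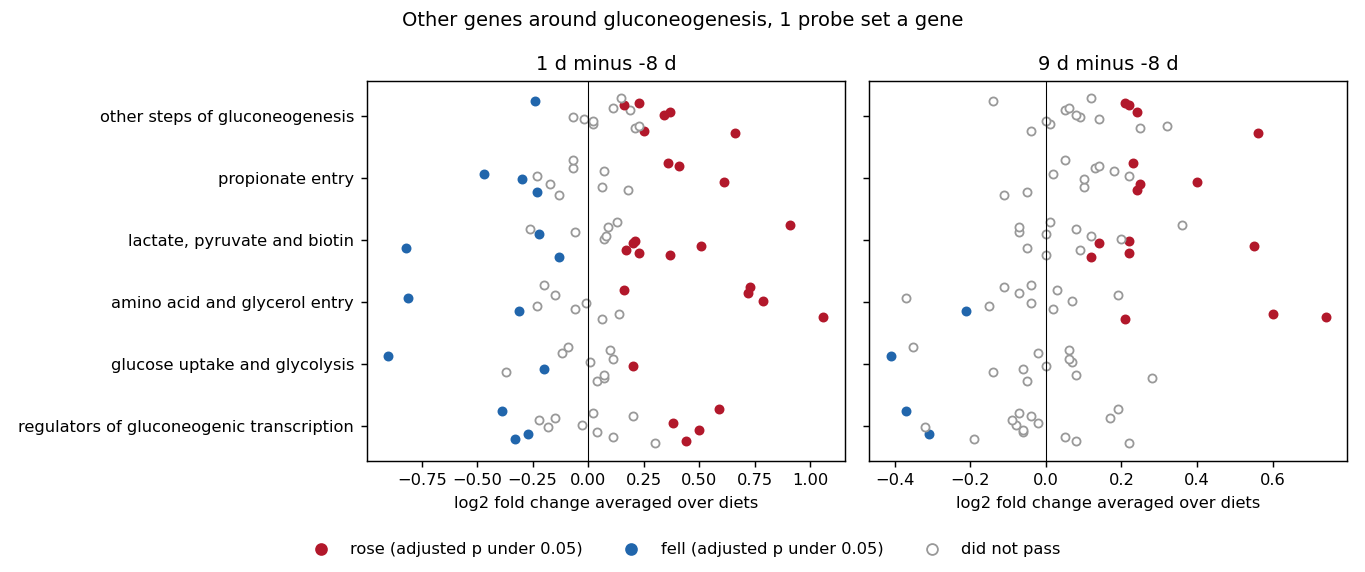
Log2 fold change (x axis) of each measured gene of the 6 pathway lists (rows), at its brightest probe set and averaged over the diets, for 1 d and 9 d against -8 d, with filled points for limma adjusted p under 0.05. The lists spread to both sides of 0, from GK at 1.06 to PKLR at -0.90 at 1 d.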

How the data were processed

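Liver RNA of 32 biopsies was measured on Affymetrix bovine arrays. The deposited values are log2 values, made by the authors with Affymetrix Expression Console 1.1 and RMA, per the submitters' processing notes; the settings are not given in the sources used here. RMA as usually run brings arrays to nearly the same distribution, so a change is measured against that of most probe sets. Values have 2 decimals, and array medians still ran from 5.86 to 5.93. Precision is limited by the number of arrays.

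The table held 24128 probe sets, from which 112 controls were removed, and no filter on level was used. Through gene identifiers of the array annotation 13292 had 1 symbol (9155 genes), 86 several and 10638 none here. limma 3.58.1 (R 4.3.3, statmod 1.5.0) fitted 6 group means across all probe sets and took cow as a random block (consensus correlation 0.138), a variance trend and Benjamini-Hochberg adjustment over 24016 probe sets, two-sided, with adjusted p under 0.05 as the threshold. On simulated data for 1 d against -8 d, with 100 probe sets changed at each size, it recovered 92% of 1.5-fold and 98% of 2-fold changes. Of its calls there 5.94% were false, and the other comparisons were not simulated. The simulated noise followed the fitted model itself. Far fewer probe sets were changed than limma called in the data, so these shares need not hold there. Cow numbers in the labels pair the arrays, which come from the same animal; replicate numbers of the titles do not. Differences within arrays were tested by exact two-sided sign flips over cows and adjusted within each family.

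Named were all members, and for each list up to 4 genes with the smallest p at 1 d and at 9 d, and the genes most like each member. Members and lists were chosen with earlier results of these data known. No sequences or genome positions were used.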

Additional observations from a re-analysis of the deposited data

Results flagged for a closer look

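In 4 of 84 groups of probe set and condition that held 4 to 6 arrays, 1 array lay far from the others by Dixon's test, and chance flags about 1 in 20 groups. PC (Bt.12339.1.S1_at) read 11.98 in CON 1 d replicate 2, from cow 477, while the other 3 arrays read 11.74 to 11.78. PC (Bt.12339.3.A1_at) read 4.35 in CON 9 d replicate 2, also from cow 477, while the others read 3.89 to 4.05. In HIGH 9 d replicate 1, from cow 512, PPARGC1A read 9.00 on Bt.5814.1.A1_at, against 8.40 to 8.53 in the others, and 7.06 on Bt.5823.1.S1_at, against 6.31 to 6.56.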

How the results depend on the processing

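Over 53 other fits no member that passed changed direction. The counts of members for 1 d and for 9 d against -8 d, averaged over the diets, stayed within 1.5 times, and those for diet and diet by time stayed at 0 (cow as a fixed effect gives no value for diet). Main counts were 2 members from 1 d to 9 d, 8 (1 d, CON), 4 (9 d, CON) and 1 (1 d to 9 d, CON). Without a replicate block for cow they were 1, 4, 2 and 0. With the title numbers as the replicate block they were 1, 5, 2 and 0, and these numbers do not pair the arrays. With only the cows that had 3 days they were 0, 2, 1 and 0. Array weights and median centring each gave 1 from 1 d to 9 d. Without the arrays with muscle markers, an alternative chosen after seeing the data, they were 1 (1 d to 9 d), 2 (9 d, CON) and 0 (1 d to 9 d, CON). The causes were not tested, although several of these fits hold fewer arrays. Leaving out 1 array or 1 cow at a time gave 11 to 11 members at 1 d, 8 to 9 at 9 d, 1 to 3 from 1 d to 9 d, 2 to 8, 1 to 5 and 0 to 1 in CON, and 8 to 10, 3 to 7 and 0 to 1 in HIGH, and 0 for diet. Calls within genes numbered 9 to 12 and those of PC against other genes 13 to 14. PC itself was called throughout, with 1.43 to 1.67 at 1 d and 0.94 to 1.12 at 9 d, and its fall from 1 d to 9 d ended with only the cows of 3 days (-0.51, limma adjusted p = 0.0522). G6PC1 (Bt.19376.1.A1_at) rose from 1 d to 9 d without the 1 d array of cow 477, or without that cow (0.37 to 0.38, limma adjusted p from 0.00603 to 0.00753).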
